A study of Rattus norvegicus with 11 samples.

Results

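The genes described here encode 8 proteins that take up arginine, rebuild it or turn it into nitric oxide, and make or break down polyamines. They were chosen by symbol as Nos2, Slc7a2, Ass1, Asl, Odc1, Srm, Sms and Sat1, and each symbol matched 1 of the 30560 genes in the expression table. All 8 were among the 15742 genes that passed the filter on low counts and were tested. Their transcripts were measured by poly(A) RNA sequencing of the striatum at day 3 in 11 adult male Sprague-Dawley rats, 1 library per rat. The comparisons ask how the striatum responds to a common and to a severe intracerebral hemorrhage, and to removal of the hematoma.

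The 3 IC rats (common hemorrhage) received 0.2 U of bacterial collagenase VII-S in 1.0 μL of saline in the right striatum. The 3 IS rats (severe hemorrhage) received 0.6 U in 3.0 μL. The 3 IS-HA rats received the IS dose. At 6 h they were anesthetized again, and 150 μL was aspirated through a catheter passed into the hematoma. The 2 Normal rats received neither collagenase nor aspiration. Collagenase is an enzyme that breaks down the collagen around vessels, so bleeding follows its injection. No vehicle-injected or needle-only rats were analysed here, and the injection, the enzyme and the blood cannot be told apart in comparisons with Normal. No IS rats with a catheter but without aspiration were analysed either. Hematoma removal and the rest of that procedure thus cannot be told apart in IS-HA against IS. IS and IC differ in injected volume as well as in dose. Every comparison with Normal shares the same 2 rats, and the comparisons of IS with IC and of IS-HA with IS share the IS rats. The rats carry replicate numbers in the labels (1 and 3 in Normal, 2, 3 and 4 in IC and IS, and 1, 2 and 3 in IS-HA), which name different animals. Values below are given in that order.

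Arginine has several fates. Nitric oxide synthases oxidize it to nitric oxide and citrulline, and it is also a source of ornithine. Ornithine feeds the polyamines putrescine, spermidine and spermine, small cations that bind nucleic acids and are needed for growth. In macrophages and microglia the inducible synthase is a textbook marker of inflammatory activation, and blood entering the brain brings in cells that can carry it.

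Counts assigned to genes ranged from 6701301 in IS-HA replicate 2 to 18817645 in IC replicate 3. Markers of striatal neurons were present in every rat, with summed levels of 5710 to 6210 TPM (transcript reads scaled by gene length and by library) in Normal and of 1280 to 5180 TPM in the 9 hemorrhage rats. Immune markers differed between the groups. The summed level of 12 microglia and macrophage markers was 293 to 423 TPM in Normal, 2450 to 3290 in IC, 4470 to 5470 in IS and 3260 to 5270 in IS-HA. The sum of 10 neutrophil markers was 5.03 to 5.23 TPM in Normal, 86.0 to 269 in IC, 504 to 700 in IS and 170 to 864 in IS-HA, with Ltf at 0 in every rat and Mpo at 0 in 9 of the 11. IS-HA replicate 2, the smallest library, had the highest neutrophil sum of all rats. In tissue of this kind, fewer cells of a type and less RNA per cell cannot be told apart. The part of these cells in the values below was not tested.

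Odc1 and Sat1 rose in all 3 hemorrhage groups against Normal, Nos2 rose in IS, Asl rose in IS and IS-HA, and Ass1 fell in IC and IS. Slc7a2, Srm and Sms were called in no comparison with all rats in the edgeR fit. Genes were called at an adjusted p under 0.05 in the quasi-likelihood test of edgeR (adjusted by Benjamini-Hochberg over all 15742 genes). In IC 2 members were called higher and 1 lower, where 13% and 4.64% of all genes tested were, 17.6% in all. Without IS-HA replicate 2 the call was made for 5 members in IC. In IS 4 were called higher and 1 lower, against 24.8% and 24.2% of all genes, 49% in all. In IS-HA 3 were called higher and 0 lower, against 19.5% and 12.1%, 31.5% in all. Fewer members were called in each group when either Normal rat was left out, which leaves 1 rat in Normal. Shares of all genes called against Normal without 1 rat are not given here, so those counts are not a result about the members. The median log2 fold change of the 8 was 0.49 in IC, 0.93 in IS and 0.74 in IS-HA, and that of all genes tested was 0.00, 0.02 and 0.06.

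The members called were thus 37.5% in IC, 62.5% in IS and 37.5% in IS-HA, of 8 genes each. The Wald test of DESeq2 called 5, 6 and 4 members against Normal in IC, IS and IS-HA, where it called 24.3%, 47.7% and 34.9% of all genes. In CPM (counts scaled to library size, here normalized by TMM) the group did not overlap with Normal for 6 members in IC (63.7% of all genes), 8 in IS (74.4%) and 6 in IS-HA (60.9%).

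No member was called by edgeR between hemorrhage groups, where it called 0% (IS against IC), 0.00635% (IS-HA against IS) and 0% (IS-HA against IC) of all genes. At an unadjusted p under 0.05, Nos2, Odc1 and Srm were higher (10.5% of all genes) and Slc7a2 lower (11.7%) in IS than in IC, Nos2 was lower in IS-HA than in IS (3.36%), and Odc1 was higher in IS-HA than in IC (2.59%). DESeq2's Wald test called Nos2 and Odc1 higher in IS than in IC (2.99% of all genes), Nos2 lower in IS-HA than in IS (0.155%), and 0 members in IS-HA against IC (0.0869%). Voom with a quality weight per rat called the same members in the same directions (6.26% and 1.04%). Without IS-HA replicate 2, edgeR called Nos2 and Odc1 in IS against IC (6.38%) and Nos2 in IS-HA against IS (0.975%). In normalized CPM, 3 members in IS lay wholly above IC (19.2%), 2 in IS-HA lay wholly below IS (5.42%) and 0 wholly above (4.96%), and 1 in IS-HA lay wholly above IC (4.66%).

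**Figure D1:**
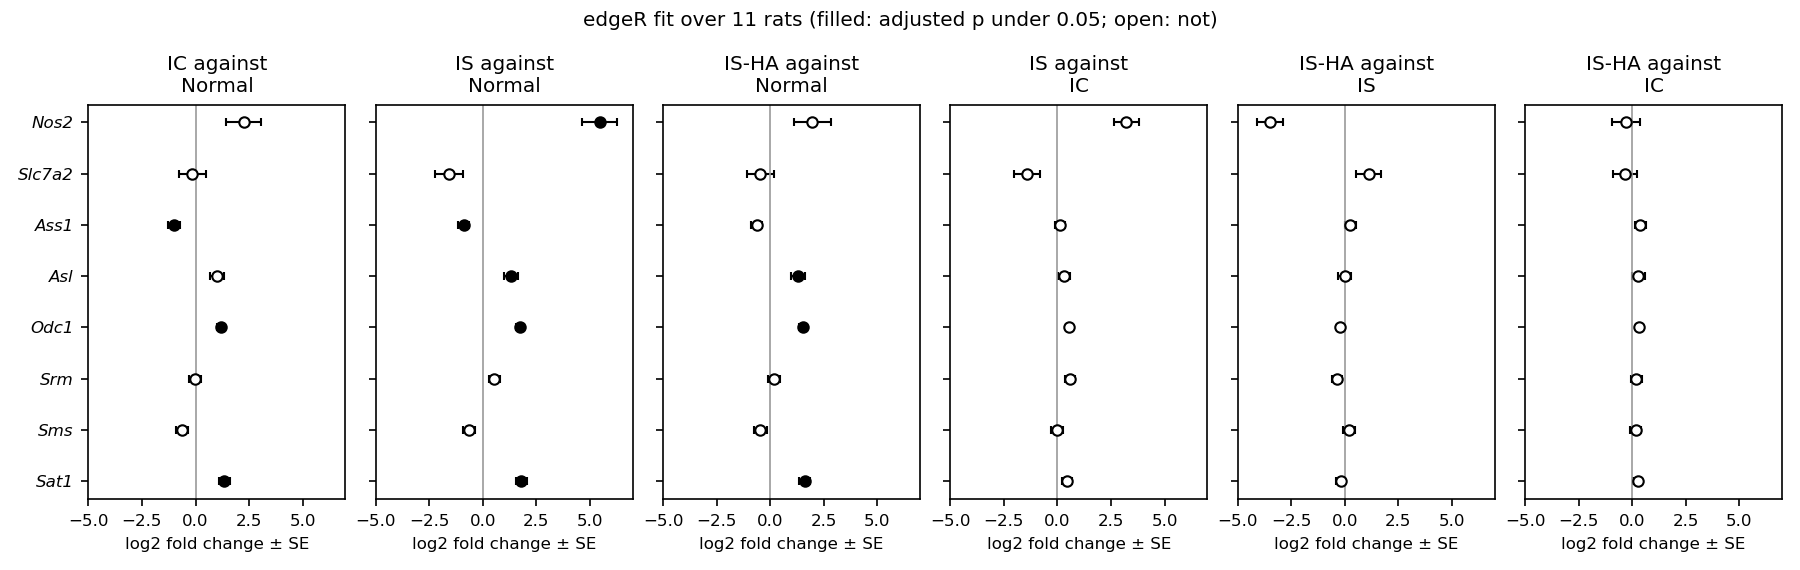
Log2 fold change ± SE of each of the 8 genes in the 6 comparisons from the edgeR fit over 11 rats. Filled points have an adjusted p under 0.05 and open points do not. Odc1 and Sat1 are filled in all 3 comparisons with Normal, and no point is filled between hemorrhage groups.

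In edgeR, Nos2 showed the largest log2 fold change of the 8 genes in IC and in IS against Normal. In IS-HA it did so with all rats (1.97), but without IS-HA replicate 2 its value was 1.39, below those of Odc1 (1.49) and Sat1 (1.43), and voom gave the same order (1.39, 1.51 and 1.45). It stood highest in the IS rats, and the IS-HA rats overlapped with the IC rats. Inducible nitric oxide synthase, encoded by Nos2, is nearly absent from resting brain. Its levels were 0.122 and 0.124 TPM in Normal, 0.430, 0.508 and 0.969 in IC, 2.28, 8.0 and 6.19 in IS, and 0.357, 0.820 and 0.367 in IS-HA. Every IS rat was above every other rat, and every hemorrhage rat was above both Normal rats. These levels rest on 4 counts in each Normal rat, 12 to 21 in IC, 48 to 177 in IS and 7 to 12 in IS-HA, and a gene at 3 counts is taken as the floor of detection. The Normal level was thus close to the floor, and folds against it are imprecise.

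**Figure D2:**
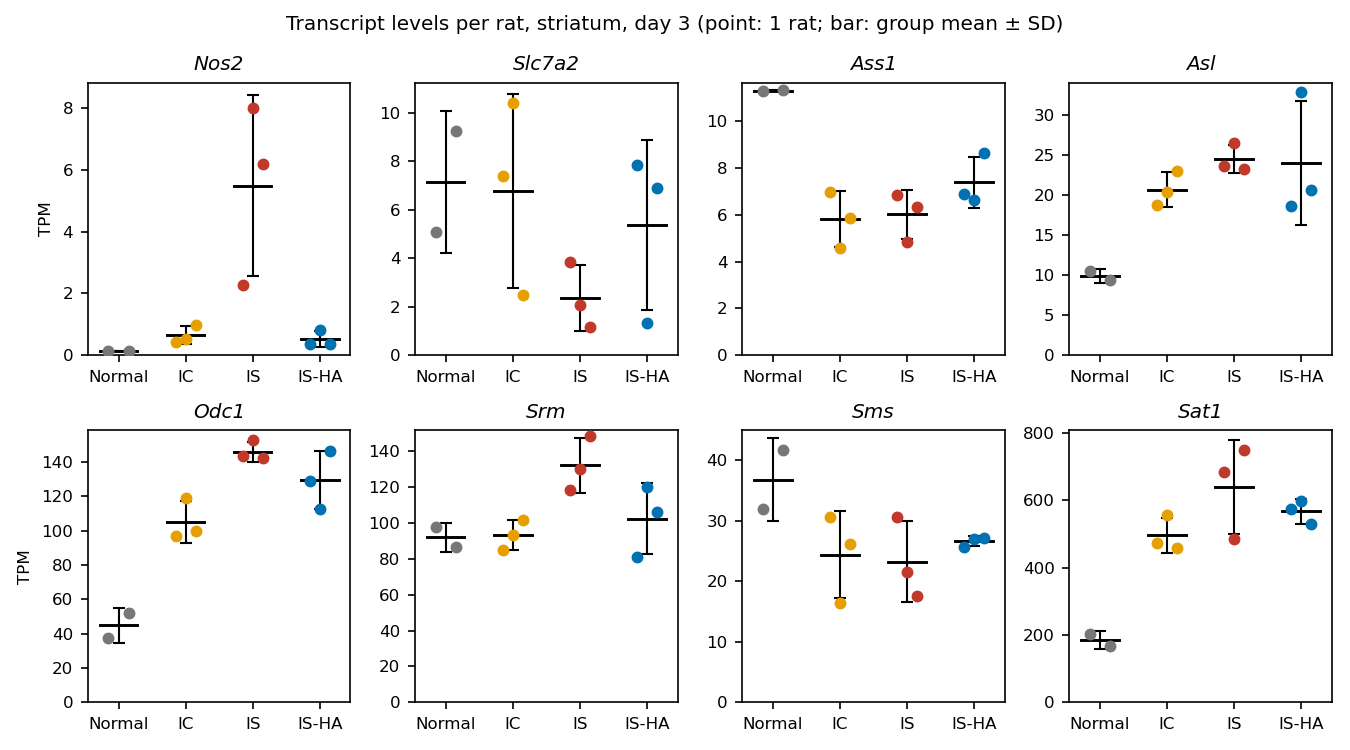
Transcript level of each of the 8 genes in TPM (linear axes from 0) in the 2 Normal, 3 IC, 3 IS and 3 IS-HA rats. Points are rats, the horizontal bar is the group mean and the error bar the SD. For Nos2 the 3 IS rats lie above all other rats, and for Odc1 and Sat1 all 9 hemorrhage rats lie above both Normal rats.

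Against Normal, Nos2 rose in IS, with a log2 fold change of 5.46 ± 0.81 (SE, edgeR, adjusted p = 0.000499). In IC its log2 fold change was 2.26 ± 0.82 (adjusted p = 0.0792) and in IS-HA 1.97 ± 0.85 (adjusted p = 0.0978), both short of the threshold of 0.05 in edgeR and past it in DESeq2's Wald test (adjusted p = 0.0278 and 0.0494). In edgeR the IC difference also passed without IS replicate 2 (adjusted p = 0.0434) or IS-HA replicate 2 (0.0469). Over the 21 alternatives that gave a value, the log2 fold change ran from 2.41 to 5.86 in IS, from 0.53 to 2.49 in IC and from 0.42 to 2.27 in IS-HA. The lowest value of each came on the log2(TPM + 1) scale, which understates the change of low genes.

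Nos2 also differed most among the 8 genes between IS and each of the other hemorrhage groups. It was higher in IS than in IC by a log2 fold change of 3.21 ± 0.58, which ranked 8 from the highest among the 15742 genes. It was lower in IS-HA than in IS by -3.50 ± 0.61, which ranked 9 from the lowest. Neither difference was past the adjusted threshold in edgeR, with an adjusted p of 0.143 (unadjusted 0.000175) for IS against IC and of 0.292 (unadjusted 0.000134) for IS-HA against IS. The lowest adjusted p of any gene was 0.143 and 0.0488 in these comparisons.

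These calls depended on the test and on 1 library. DESeq2's Wald test called both differences, with adjusted p of 0.000121 and 8.09e-05. Without IS-HA replicate 2, edgeR gave adjusted p of 0.0208 and 0.0342. Over all alternatives the adjusted p ran from 0.000121 to 0.516 in IS against IC and from 8.09e-05 to 1 in IS-HA against IS, and neither difference changed sign under any of them. Nos2 was not told apart between IS-HA and IC, with a log2 fold change of -0.29 ± 0.64 and an adjusted p of 0.937 (edgeR). Without IS-HA replicate 2 the log2 fold change was -0.86 (adjusted p = 1.00), and over all alternatives it ran from -0.86 to 0.26, the last with the replicate block.

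**Figure D3:**
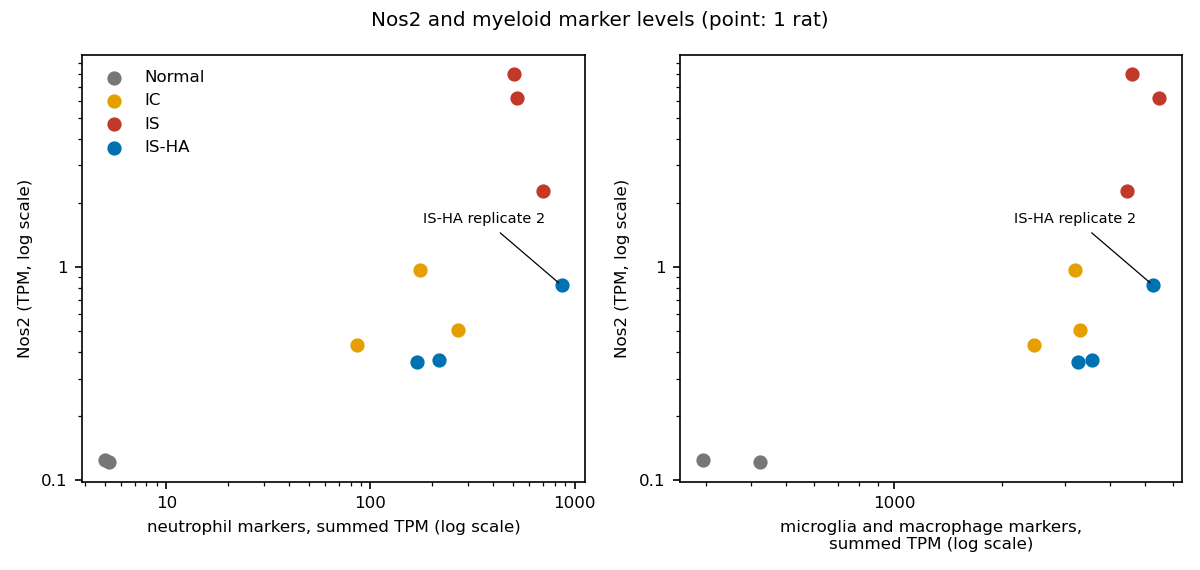
Nos2 level against the summed levels of neutrophil markers (left) and of microglia and macrophage markers (right), all in TPM on log axes, with 1 point per rat. IS-HA replicate 2 has the highest neutrophil sum (864 TPM), and its Nos2 level (0.820 TPM) lies below that of every IS rat.

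Myeloid marker sums and Nos2 were both lowest in Normal and, by group mean, highest in IS. Single markers did not all follow their sum. At an unadjusted p under 0.05 in edgeR, 5 of the 12 microglia and macrophage markers were higher and 2 lower in IS than in IC. Of the 6 neutrophil markers tested, 5 were higher and 0 lower. Of all genes, 10.5% were higher and 11.7% lower. The neutrophil sum was 86.0, 269 and 174 TPM in IC and 170, 864 and 218 in IS-HA, and the microglia and macrophage sum was 2447.5, 3290.3 and 3186.5 TPM in IC and 3257.4, 5268.8 and 3563.1 in IS-HA, so that apart from IS-HA replicate 2 the neutrophil sums of IS-HA lay within the range of IC. The plot of Nos2 against the marker sums shows IS-HA replicate 2 apart. Its neutrophil sum was 864 TPM against 504 to 700 TPM in the IS rats, and its microglia and macrophage sum of 5270 TPM lay within the IS range. Its Nos2 level of 0.820 TPM was below that of every IS rat. The part of myeloid cells in the Nos2 levels was not tested. The sum of 7 markers of blood-derived macrophages was 2613, 8467 and 4949 TPM in IC, 10274, 8900 and 21851 in IS, and 6820, 8888 and 5999 in IS-HA. IS replicate 3, with the highest Nos2 level, had the lowest such sum of the IS rats.

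Slc7a2 encodes a cationic amino acid transporter that brings arginine into cells and is induced with Nos2 in cultured macrophages. Its levels were 5.08 and 9.23 TPM in Normal, 7.40, 10.4 and 2.47 in IC, 3.85, 2.05 and 1.16 in IS, and 7.83, 1.33 and 6.90 in IS-HA. All 3 IS rats lay below both Normal rats, and in IC and IS-HA 1 rat each (replicates 4 and 2) lay at the IS level. The log2 fold change against Normal was -1.57 ± 0.64 in IS (edgeR, adjusted p = 0.0625). It was past the threshold in DESeq2's Wald test (adjusted p = 0.0356) and in edgeR without IC replicate 4 (0.0469), IS replicate 2 (0.0445) or IS-HA replicate 2 (0.0228), while edgeR gave adjusted p of 0.891 for IC and 0.582 for IS-HA. In IS-HA the log2 fold change was -0.46 with all rats and -0.07 without IS-HA replicate 2. Across the 9 hemorrhage rats, Slc7a2 ran opposite to Srm (Pearson r = -0.95 on log2 CPM) and to Asl (r = -0.86), and Nos2 ran with Srm (r = 0.82). These rats differ in group and depth, and the correlations are descriptions of 9 points.

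Ass1 and Asl, which encode the successive enzymes that rebuild arginine from citrulline, differed in direction. Argininosuccinate synthetase, the product of Ass1, is usually taken as the limiting step. Ass1 levels were 11.3 TPM in both Normal rats, 6.98, 4.58 and 5.88 in IC, 6.87, 4.85 and 6.34 in IS, and 6.87, 6.65 and 8.65 in IS-HA. Every hemorrhage rat was below both Normal rats. Ass1 fell in IC, with a log2 fold change of -1.02 ± 0.27 (edgeR, adjusted p = 0.0260), and in IS, with -0.90 ± 0.27 (adjusted p = 0.0189). In IS-HA the log2 fold change was -0.63 ± 0.27 (adjusted p = 0.0936). Both calls were lost when either Normal rat was left out, with adjusted p of 0.126 and 0.129 for IC and of 0.0932 and 0.0723 for IS. The IC call was also lost without IC replicate 3 or 4 (0.0958 and 0.0569), and the IS call without IS replicate 3 (0.0698).

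Argininosuccinate lyase, encoded by Asl, completes the step. Asl levels were 10.5 and 9.30 TPM in Normal, 18.7, 20.3 and 22.9 in IC, 23.6, 26.5 and 23.3 in IS, and 18.6, 32.9 and 20.6 in IS-HA. All hemorrhage rats were above both Normal rats, and the highest value was that of IS-HA replicate 2. Asl rose in IS (log2 fold change 1.31 ± 0.34, edgeR, adjusted p = 0.00972) and in IS-HA (1.30 ± 0.34, adjusted p = 0.0168). In IC it was 1.00 ± 0.34 (adjusted p = 0.0638), past the threshold in 8 of 22 alternatives. Without Normal replicate 3 the adjusted p became 0.0894 in IS and 0.142 in IS-HA, and without Normal replicate 1 it was 0.0605 in IS-HA. The IS-HA call was also lost in a fit of only the groups compared (0.0888). Without IS-HA replicate 2 it was kept, with a smaller log2 fold change of 0.84 (adjusted p = 0.0137). The ratio of Asl to Ass1 levels, chosen after its values were seen, was 0.822 and 0.932 in Normal and 2.38 to 5.46 in the 9 hemorrhage rats.

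The enzymes at opposite ends of polyamine metabolism, Odc1 and Sat1, rose in all 3 hemorrhage groups. Ornithine decarboxylase, the product of Odc1, makes putrescine and limits polyamine synthesis. Odc1 levels were 37.7 and 52.2 TPM in Normal, 96.7, 119 and 99.6 in IC, 143, 153 and 142 in IS, and 129, 113 and 147 in IS-HA. All hemorrhage rats lay above both Normal rats, all IS rats lay above all IC rats, and in TPM IS-HA overlapped with both. In normalized CPM the IS-HA rats (125 to 140) lay wholly below IS (143 to 164) and wholly above IC (95.3 to 115). The log2 fold change against Normal was 1.18 ± 0.17 (edgeR, adjusted p = 0.00105) in IC, 1.73 ± 0.18 (adjusted p = 6.7e-05) in IS and 1.52 ± 0.18 (adjusted p = 0.000219) in IS-HA. These 3 calls of Odc1 were made under all 22 alternatives that gave a value. IS against IC differed by 0.55 ± 0.15 (edgeR, adjusted p = 0.148, unadjusted 0.00358), a difference that was past the threshold in DESeq2's Wald test (adjusted p = 0.0129) and in edgeR without IS-HA replicate 2 (adjusted p = 0.0331).

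Sat1 encodes spermidine/spermine N1-acetyltransferase, which marks polyamines for breakdown and export. It was the most abundant of the 8 transcripts in every group. Its levels were 204 and 167 TPM in Normal, 473, 556 and 458 in IC, 683, 484 and 750 in IS, and 573, 599 and 528 in IS-HA. The hemorrhage rats all lay above Normal and the 3 hemorrhage groups overlapped. Sat1 rose by a log2 fold change of 1.35 ± 0.26 (edgeR, adjusted p = 0.00494) in IC, 1.80 ± 0.26 (adjusted p = 0.000462) in IS and 1.61 ± 0.26 (adjusted p = 0.00144) in IS-HA. The IC call was lost in 2 of 22 alternatives. The ratio of Sat1 to Odc1 levels was 3.17 to 5.40 over all 11 rats, with all groups overlapping, as the plot of ratios shows.

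The aminopropyl transferases between these ends, Srm and Sms, were called in no comparison in the edgeR fit of all rats. Srm encodes spermidine synthase. Its levels were 97.5 and 86.3 TPM in Normal, 85.0, 93.5 and 102 in IC, 118, 130 and 148 in IS, and 81.0, 120 and 106 in IS-HA. The IS rats lay above all Normal and IC rats, with log2 fold changes of 0.54 ± 0.27 against Normal (edgeR, adjusted p = 0.119) and 0.57 ± 0.24 against IC (adjusted p = 0.205). The first was past the threshold in edgeR scaled by library size alone (adjusted p = 0.0410), in limma on both scales of log2 TPM (0.0458 and 0.0471), in voom (0.0481) and in edgeR without IS-HA replicate 2 (0.0398). Sms encodes spermine synthase, and its levels were 31.9 and 41.6 TPM in Normal, 30.6, 16.5 and 26.1 in IC, 30.6, 21.6 and 17.5 in IS, and 25.7, 27.0 and 27.2 in IS-HA. All 9 hemorrhage rats were below both Normal rats, by a log2 fold change of -0.63 ± 0.29 in IC, -0.65 ± 0.29 in IS and -0.46 ± 0.29 in IS-HA (edgeR, adjusted p = 0.148, 0.0835 and 0.236). The IS difference passed in voom (0.0347), in a fit of only the groups compared (0.0441) and without IC replicate 3 (0.0412). The ratio of Srm to Sms levels was 3.05 and 2.07 in Normal, 2.78, 5.67 and 3.89 in IC, 3.86, 6.02 and 8.46 in IS, and 3.16, 4.44 and 3.90 in IS-HA. IS and IS-HA lay above Normal, and the 3 hemorrhage groups overlapped. No test was made on ratios.

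**Figure D4:**
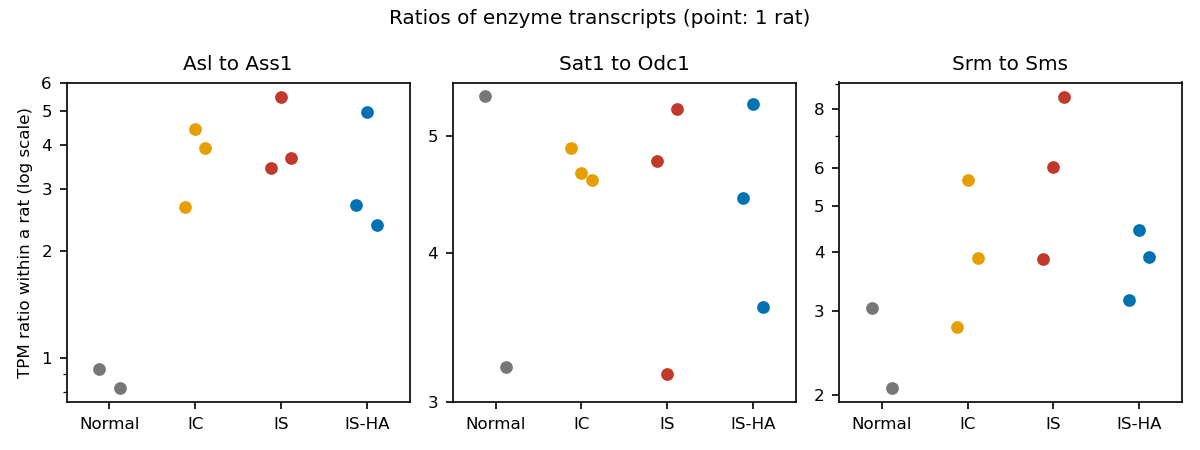
Ratios of transcript levels (TPM over TPM, log axes) within each rat, with 1 point per rat. The Asl to Ass1 ratios of all 9 hemorrhage rats (2.38 to 5.46) lie above those of both Normal rats (0.822 and 0.932), and the Sat1 to Odc1 ratios of the 4 groups overlap.

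Promoter sequences, the 250 bases before and 50 after the gene start, were available from RefSeq (build GRCr8) for Ass1, Asl, Odc1, Srm, Sms and Sat1. Those of Odc1 and Sat1, which rose in all 3 hemorrhage groups, are printed beside that of Srm, which was not called in edgeR with all rats. They lie on the plus strand at chr6:46058415-46058714 (Odc1), chrX:44007839-44008138 (Sat1) and chr5:164308752-164309051 (Srm) and are written 5′ to 3′. Capitals mark matches to the motifs searched.
Odc1: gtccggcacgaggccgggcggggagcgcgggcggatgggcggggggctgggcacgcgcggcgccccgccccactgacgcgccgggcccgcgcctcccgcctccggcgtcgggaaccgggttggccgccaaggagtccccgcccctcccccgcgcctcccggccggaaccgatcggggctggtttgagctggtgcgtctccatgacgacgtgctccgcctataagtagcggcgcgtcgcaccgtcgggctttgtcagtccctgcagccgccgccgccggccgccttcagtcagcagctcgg
Sat1: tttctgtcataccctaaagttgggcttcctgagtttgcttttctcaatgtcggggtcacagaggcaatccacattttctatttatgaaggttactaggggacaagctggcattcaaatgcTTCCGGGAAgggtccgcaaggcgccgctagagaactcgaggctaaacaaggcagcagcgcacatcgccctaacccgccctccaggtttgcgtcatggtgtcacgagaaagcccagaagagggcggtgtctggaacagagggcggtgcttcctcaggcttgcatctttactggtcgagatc
Srm: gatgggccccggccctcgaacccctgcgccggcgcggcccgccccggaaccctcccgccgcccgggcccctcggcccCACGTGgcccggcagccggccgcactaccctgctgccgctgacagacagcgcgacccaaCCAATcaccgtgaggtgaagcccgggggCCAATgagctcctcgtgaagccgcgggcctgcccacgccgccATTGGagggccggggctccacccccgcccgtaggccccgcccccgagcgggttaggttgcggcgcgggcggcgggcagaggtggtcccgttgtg

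The 6 motifs, searched on both strands, were the E-box CACGTG, a form of the kappa-B site (GGGA, then NTN, then TCC), the AP-1 site TGANTCA, a form of the C/EBP site (TTGCNNAA), the STAT site TTCNNNGAA and the CCAAT box. Sat1 held 1 STAT match, TTCCGGGAA, beginning 130 bases before the start. Srm held 1 E-box, beginning 173 bases before the start, and 3 CCAAT boxes, 1 of them on the reverse strand. No match was found in the windows of the other 4 genes, and no matches overlapped. Of 27457 promoters of this length, 8.68% held a STAT match, 6.65% an E-box, 37.7% a CCAAT box, 7.33% an AP-1 match, 10.5% a C/EBP match and 1.09% a kappa-B match. The G and C content was 77.3% for Odc1, 77.7% for Srm, 71.7% for Sms, 60.3% for Asl, 53.3% for Sat1 and 51.0% for Ass1. A match describes the letters only.

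The wider arginine and nitric oxide list held 34 further genes, of which 33 matched the table and 29 were tested. Of the tested genes 7 were called higher and 7 lower in IS against Normal, 2 and 2 in IC, and 4 and 5 in IS-HA (edgeR). These were 48.3%, 13.8% and 31.0% of the list, near the 49%, 17.6% and 31.5% of all genes. The median log2 fold change over the list was 0.09 in IS, 0.13 in IC and 0.17 in IS-HA, beside the 0.02, 0.00 and 0.06 of all genes tested. Fewer genes of the list were called in IC, IS and IS-HA without Normal replicate 3, and in IS and IS-HA without Normal replicate 1. Those fits leave 1 rat in Normal. Without IS replicate 4 the genes called in either direction were 9 in IS, and without IS-HA replicate 2 they were 7 in IC. Shares of all genes called in these fits are not given here, so these counts are not a result about the list.

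Highest were Slc7a7, a transporter that exports cationic amino acids, and Gch1, the first enzyme of tetrahydrobiopterin synthesis. Tetrahydrobiopterin is the cofactor that every nitric oxide synthase needs. Slc7a7 rose from 1.87 ± 0.918 TPM (SD, n = 2) in Normal to 63.9 ± 28.4 TPM (n = 3) in IS, a log2 fold change of 5.11 ± 0.64 (SE, edgeR, adjusted p = 0.000186), and it also rose in IC (3.8) and IS-HA (4.39). Gch1 rose from 0.757 ± 0.0551 to 7.14 ± 2.05 TPM in IS, by 3.23 ± 0.61 (adjusted p = 0.00175), with 2.42 in IC and 2.70 in IS-HA, both called, of which the IC call was lost in 3 and the IS-HA call in 1 of 22 alternatives. Slc7a6, another exchanger of cationic amino acids, rose in IS (0.90 ± 0.21, adjusted p = 0.00515) and IS-HA (0.62 ± 0.21, adjusted p = 0.0419). The IS call was lost in 2 and the IS-HA call in 13 of 22 alternatives. Spr, the last enzyme of tetrahydrobiopterin synthesis, was called in IS (1.08 ± 0.41, adjusted p = 0.0459) and in no other comparison of the edgeR fit of all rats, and that call was lost in 9 of 22 alternatives, among them the omission of any 1 Normal, IC or IS rat. Ddah2, of the family that clears methylated arginines, is counted among the 7 called higher in IS, but it reached the CPM that the filter asks in 2 IS rats and in no other rat, so it had to be higher there. It had 4 counts in each Normal rat and at most 12 in any rat, and its fold is not given.

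The lowest log2 fold changes called in IS were those of Gucy1a2, Nos1, Gucy1a1, Gucy1b1 and Nos1ap. Nos1, the neuronal synthase, fell from 9.23 ± 3.93 TPM in Normal to 0.782 ± 0.580 in IS (log2 fold change -3.52 ± 0.56, edgeR, adjusted p = 0.000697), with -2.28 in IC and -2.18 in IS-HA, both called. The IC call was lost in 3 and the IS-HA call in 1 of 21 alternatives. Gucy1a1, Gucy1a2 and Gucy1b1, subunits of the guanylate cyclase that senses nitric oxide, fell in IS with log2 fold changes of -2.29, -4.21 and -2.02 (adjusted p = 0.00137, 0.00071 and 0.00454). In IC, Gucy1a2 was called (adjusted p = 0.0113), a call lost in 3 of 21 alternatives, while Gucy1a1 and Gucy1b1 were not (0.172 and 0.190). In IS-HA all 3 fell, with log2 fold changes of -1.99, -2.53 and -1.67 for Gucy1a1, Gucy1a2 and Gucy1b1 (edgeR, adjusted p = 0.00513, 0.00895 and 0.0183). The Gucy1a2 call was lost in 2 of 21 alternatives and the Gucy1b1 call in 3 of 22. Nos1ap, an adaptor that binds the neuronal synthase, fell in IS (-1.09 ± 0.34, adjusted p = 0.0209), a call lost in 5 of 22 alternatives, and in IS-HA (-0.96 ± 0.34, adjusted p = 0.0498), a call lost in 15 of 22, and was not called in IC (adjusted p = 0.336). Markers of striatal neurons were lower too, with a mean sum of 5960 TPM in Normal, 4290 in IC, 2110 in IS and 2090 in IS-HA. Mean levels in IC, IS and IS-HA were 1.95, 0.782 and 2.07 TPM for Nos1 and 1.05, 0.304 and 1.05 for Gucy1a2. They were 80.7, 28.1 and 36.6 for Gucy1a1 and 94.1, 41.2 and 55.2 for Gucy1b1. In edgeR, 7 of 8 markers were called lower in IS and in IS-HA than in Normal (24.2% and 12.1% of all genes). In IC 1 of 8 was (4.64%). The part of neurons in the falls was not tested. The endothelial synthase Nos3 rose in IS (0.88 ± 0.28, adjusted p = 0.0244). This call was lost without Normal replicate 3 (log2 fold change 0.53, adjusted p = 0.234) or IS replicate 4 (0.0688). Nos3 was not called in IC or IS-HA (edgeR, adjusted p = 0.330 and 0.638). The sum of 8 endothelial markers was 144 to 205 TPM in Normal, 245 to 296 in IC, 290 to 307 in IS and 238 to 303 in IS-HA. Of the 8, 3 were called higher and 1 lower in IS, where 24.8% and 24.2% of all genes were. This made 50% of the markers, near the 49% of all genes. The part of endothelium in the Nos3 rise was not tested. With the Nos2 levels, this put the 3 synthases at 9.23 (Nos1), 9.0 (Nos3) and 0.123 TPM (Nos2) in Normal and at 0.782, 16.5 and 5.49 TPM in IS.

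The polyamine list held 24 further genes, all in the table, and 23 were tested. In IS against Normal 8 were called higher and 3 lower, in IC 3 and 0, and in IS-HA 4 and 2 (edgeR). These were 47.8%, 13.0% and 26.1% of the list, at or below the 49%, 17.6% and 31.5% of all genes. The median log2 fold change over the list was 0.30 in IS, 0.09 in IC and 0.30 in IS-HA, beside 0.02, 0.00 and 0.06 over all genes tested. Fewer genes of the list were called in IC, IS and IS-HA when either Normal rat was left out, which leaves 1 rat in Normal. Without IC replicate 3 or 4 the genes called were 0 and 1 in IC, and without IS replicate 4 they were 6 in IS. Without IS-HA replicate 2 they were 6 in IC, and without IS-HA replicate 1 they were 10 in IS-HA. Shares of all genes called in these fits are not given here, so these counts are not a result about the list. Mtap, which salvages the methylthioadenosine left over from spermidine and spermine synthesis, rose in IC, IS and IS-HA by 0.89 ± 0.28, 1.71 ± 0.28 and 1.21 ± 0.28 (adjusted p = 0.0472, 0.000894 and 0.00905). The IS call held in all 22 alternatives, and the IC call was lost in 11 of them.

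Eif5a, the translation factor that carries hypusine, a residue built from spermidine, rose in IS (1.27 ± 0.33, edgeR, adjusted p = 0.0100), as did Dohh, the second hypusine enzyme (1.15 ± 0.39, adjusted p = 0.0306). Its isoform Eif5a2 fell in IS (-1.68 ± 0.37, adjusted p = 0.00389). Oaz1, the antizyme that targets ornithine decarboxylase for degradation, rose in IS (1.16 ± 0.38, adjusted p = 0.0266), as did Paox, the oxidase that acts on acetylated polyamines (1.1 ± 0.31, adjusted p = 0.0133). Amd1, which makes the aminopropyl donor for spermidine and spermine synthases, fell in IS (-0.65 ± 0.21, adjusted p = 0.0230) and in IS-HA (-0.66 ± 0.21, adjusted p = 0.0339). Mat2b, a regulatory subunit of the enzyme that makes S-adenosylmethionine, fell in both (-0.85 ± 0.24 and -0.92 ± 0.24, adjusted p = 0.0153 and 0.0173). Of these IS calls, that of Amd1 was lost in 8 of 22 alternatives, Dohh in 5, Oaz1 in 4, Paox and Mat2b in 3, Eif5a in 2 and Eif5a2 in 1. The IS-HA calls of Amd1 and Mat2b were lost in 8 and 6. Eif5a was also called higher in IS-HA (1.03 ± 0.33, edgeR, adjusted p = 0.0369), a call lost in 7 of 22 alternatives, among them the fit without IS-HA replicate 2.

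With all rats in the edgeR fit, 0 tested genes of either list were called between hemorrhage groups. Without IS-HA replicate 2, edgeR called 4 arginine and 6 polyamine genes in IS against IC, where it called 14.1% of all genes, and 1 and 2 in IS-HA against IS, where it called 4.37%. At an unadjusted p under 0.05, 7 genes of the arginine list (24.1%) and 8 of the polyamine list (34.8%) differed between IS and IC, where 22.2% of all genes did. Between IS-HA and IS 5 and 1 did so (17.2% and 4.35%, against 8.94% of all genes), and between IS-HA and IC 2 and 0 (6.90% and 0%, against 4.97%).

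**Figure D5:**
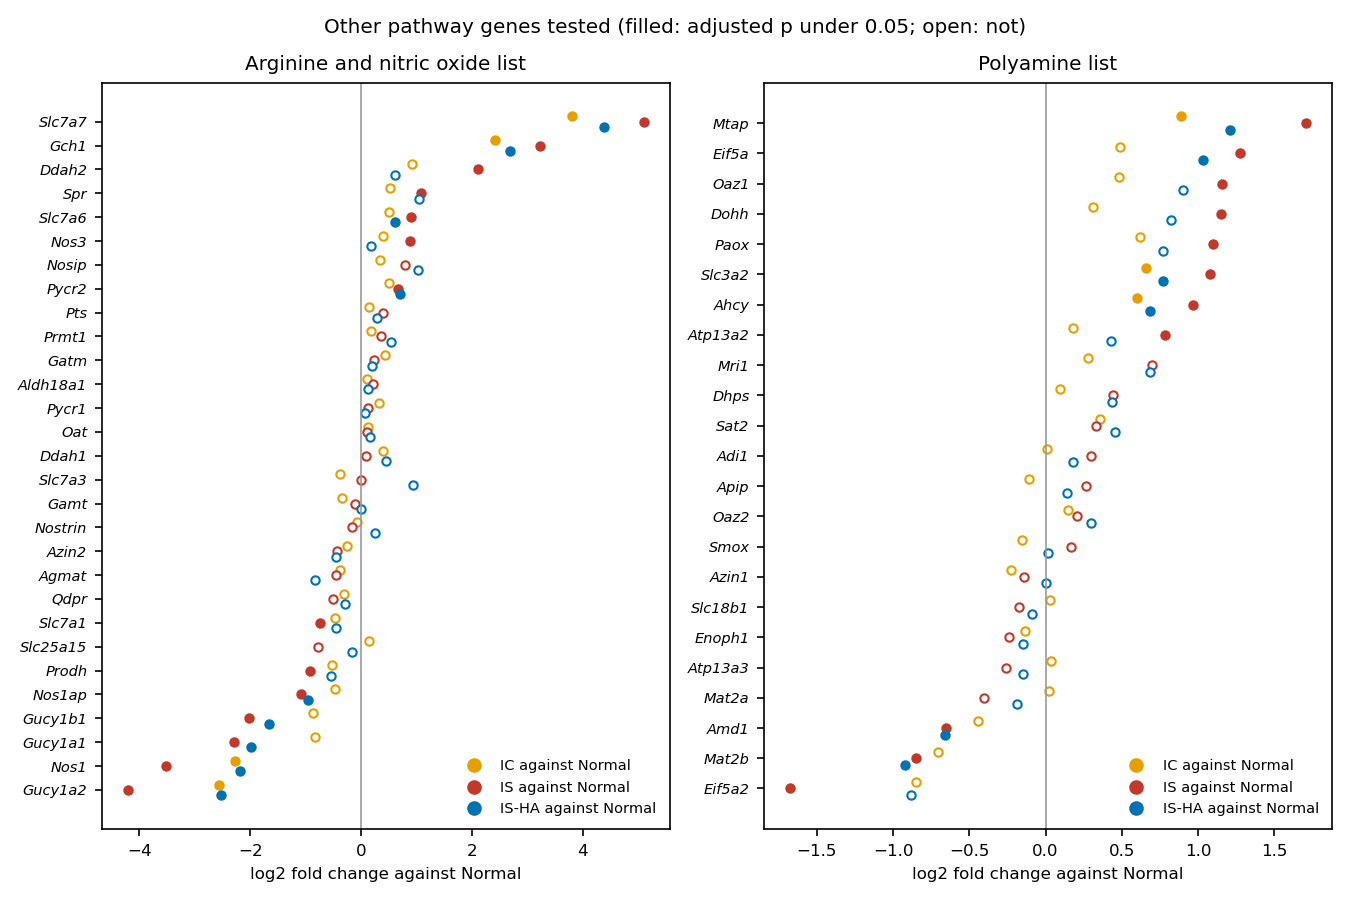
Log2 fold changes against Normal of the tested genes of the wider lists (29 arginine and nitric oxide genes, left, and 23 polyamine genes, right) for IC, IS and IS-HA, from the edgeR fit. Filled points have an adjusted p under 0.05. Slc7a7 and Gch1 stand at the top of the left panel and Nos1 and Gucy1a2 at its foot, and Mtap tops the right panel.

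Genes whose log2 CPM followed a member most closely over the 9 hemorrhage rats were ranked by Pearson r. For Nos2 they were Hpx, the heme carrier hemopexin (r = 0.967), Jag1, a Notch ligand (0.962), and Cxcl2, a neutrophil-attracting chemokine (0.958). For Asl they were Edf1 (0.992), Romo1 (0.987) and Nfkbil1 (0.987). For Odc1 they were Dlst (0.975), Slc47a1 (0.973) and the replication factor Mcm5 (0.970), and for Sat1 Alg14 (0.981), Tmbim4 (0.981) and Cdc42 (0.978). The points share group, depth and cell composition, and each gene was the closest of 15742, so these values describe likeness only.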

How the data were processed

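Bulk RNA of 11 striata (2 Normal, 3 IC, 3 IS and 3 IS-HA rats) was measured from stranded poly(A) libraries sequenced as paired-end reads. Deposited by the authors were raw counts of reads for each gene and TPM, in which counts are divided by gene length and scaled to the same sum per rat. The submitters' processing notes name fastp 0.20.0, FastQC 0.11.9, HISAT2 2.1.0, SAMtools 1.9, featureCounts of Subread, DESeq2 and the build mRatBN7.2. The strand setting of the counting is not given in the sources used here, and reads of overlapping antisense genes may not be told apart. The deposited table holds 30560 genes, 8693 of them at 0 in every rat, and 0 columns were left unmatched.

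Counts were filtered with filterByExpr, normalized by TMM and tested in 1 edgeR 4.0.16 quasi-likelihood fit over the 4 groups (R 4.3.3, residual df of 7), with Benjamini-Hochberg adjustment over 15742 genes and a threshold of 0.05 on the adjusted p. SEs are the absolute log2 fold change over the square root of F. The p-values measure the spread between these rats. Levels compared between genes are deposited TPM, with the SD between rats. Depth limits the low genes, since 3 counts, the floor, are 0.448 CPM in the smallest library and 0.159 CPM in the largest. Intervals from counting were not used.

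All 8 genes are named. Some genes that belong to the same rule or lists are not reported here. Of each wider list, named are the 5 highest and up to 5 of the lowest log2 fold changes called in IS against Normal. Only 3 polyamine genes were called lower there. Nos3 was named after its values were seen. The members and lists were chosen with earlier results of these data known. Alternatives were other scalings, DESeq2 1.42.0's Wald test, limma 3.58.1 on log2(TPM + 1) and log2(TPM + 0.1), voom with quality weights, other filters, fits of only 2 groups, fits without 1 rat at a time and the replicate number as a block. The scripts were tested on simulated data. Plots used matplotlib 3.10.9.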

Additional observations from a re-analysis of the deposited data

How the results depend on the processing

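Over 1050 alternative values of a member in a comparison, 958 kept their direction and their side of the threshold, 17 lost the call and 37 gained one. The sign changed in 38 values that were past the threshold in neither fit, and in 0 values that were past it in either. Leaving out 1 rat gave at most 5 members called in IC against Normal (3 with all rats), 7 in IS (5) and 3 in IS-HA (3). Fewer were called in each of these when either Normal rat was left out, which leaves 1 rat in Normal. Between hemorrhage groups the counts were 0 to 2 in IS against IC (0), 0 to 1 in IS-HA against IS (0) and 0 in IS-HA against IC. The values of 2 and 1 came without IS-HA replicate 2, where 14.1% and 4.37% of all genes were called (0% and 0.00635% with all rats). Shares of all genes for the omissions against Normal are not given here, so those counts are not a result about the members. In IC against Normal, 5 members were called by DESeq2's Wald test (24.3% of all genes) and 5 in a fit of only the groups compared. In IS against Normal 8 were called by voom with quality weights. For that fit, voom and the replicate block, the shares of all genes called against Normal are not given here. Their counts against Normal are thus not a result about the members. In IS against IC, 2 members were called by DESeq2's Wald test and 2 by voom with quality weights (Nos2 and Odc1). In IS-HA against IS both methods called 1 (Nos2). The causes were not tested. With the replicate block, which assumes a pairing that the labels do not give, 1 member was called in IC against Normal, 3 in IS against Normal, 2 in IS-HA against Normal and 0 between hemorrhage groups. The counts of the wider lists moved too. With all rats, 4 arginine and 3 polyamine genes were called in IC, 14 and 11 in IS, and 9 and 6 in IS-HA. Fewer were called in each group without Normal replicate 3, and in IS without Normal replicate 1, fits that leave 1 rat in Normal. The replicate block gave 1 arginine and 0 polyamine genes in IC, and 6 and 3 in IS. Shares of all genes called in these fits against Normal are not given here. Without IS-HA replicate 2, 4 arginine and 6 polyamine genes were called in IS against IC, beside 14.1% of all genes. Same-numbered rats did not deviate together, with correlations of -0.34 to 0.356 in IS against IC. Nos2 could not be tested when at least 10 counts were asked in every rat. Scaling by library size alone moved the median of all genes against Normal to 0.143 in IC, 0.146 in IS and 0.183 in IS-HA on the log2 scale, and turned the log2 fold changes of Slc7a2 (0.01) and Srm (0.10) in IC positive. With 2 Normal rats, calls against Normal rest on the spread shared with the other groups, and Nos2 in Normal lies near the floor.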
